A study of Mus musculus with 8 samples.

Results

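The genes described here encode collagens, laminin chains and 6 further proteins of the extracellular matrix: fibronectin (Fn1), osteonectin (Sparc), both nidogens (Nid1 and Nid2), perlecan (Hspg2) and agrin (Agrn). They were chosen by name: every autosomal protein-coding mouse gene whose symbol is Col, Lama, Lamb or Lamc followed by a digit, plus those 6. The rule uses no measured value, but it was set with earlier results of these data known. It gave 59 genes, of 21896 protein-coding genes in the RefSeq annotation: 42 collagens, 11 laminin chains and the 6 others. At least 1 peak of N6-methyladenosine (m6A) was listed for 29 of the 59, and none for the other 30. These 29 carried 99 of the 27612 Dox peaks and 113 of the 25815 control peaks. Over the whole annotation, 10675 of the 21896 genes were matched to an identifier with a peak, a share near that of the 59.

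The data come from m6A sequencing of mouse embryonic stem cells that carry a doxycycline-inducible knockdown of Setd2, the enzyme that places trimethylation on lysine 36 of histone H3. The Dox cells received doxycycline at 1 µg/ml for 4 days and the control cells received none. Both grew as spheres without feeder cells on gelatin in serum-free N2B27 medium with 1000 U/ml LIF, the GSK3 inhibitor CHIR99021 at 3 µM and PD0325901, which inhibits MEK, at 1 µM. Each condition had 2 IP libraries, made from messenger RNA fragments pulled down with an m6A antibody, and 2 input libraries, 8 libraries in all. The authors deposited 1 peak table per condition in which the 4 libraries are pooled. There is therefore no spread between replicates, no test between the conditions was possible, and the depth per library is unknown. No library of doxycycline-treated cells without the knockdown construct was analysed here, so an effect of the drug itself and of the knockdown cannot be told apart. The labels do not say whether the replicates were separate cultures.

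Collagens are trimers of chains in which a glycine begins each repeated triplet of residues. Fibrillar collagens form the rope-like fibres of connective tissue, and the collagen chains of the network class form the sheets of basement membranes. Laminins are trimers of an alpha, a beta and a gamma chain, and they assemble with network collagen, nidogens, perlecan and agrin into the basement membrane, the first matrix an early mouse embryo lays down. m6A is a methyl mark on adenosines inside messenger RNA, enriched in the sequence GGAC and often near stop codons. An m6A peak is a stretch of exons where IP reads exceed input reads. Its fold is IP over input and its log10 FDR says how far it stands out (a more negative value is a stronger call, and -Inf stands for an FDR listed as 0). Both are the authors' own values for each peak, and neither gives the level of the transcript. Percentages below carry exact (Clopper-Pearson) 95% intervals, which cover counting error only and treat peaks as independent.

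Start sites covered by a peak show what kind of sequence the peaks held. RefSeq start windows were at hand for 42 of the 59 genes. In 5 of these 42 a peak reached into the first 30 transcribed bases, which are shown in capitals after 30 bases of upstream sequence in lower case (RefSeq, GRCm38.p6, the assembly of mm10).
Hspg2, chr4:137468773-137468832, plus strand: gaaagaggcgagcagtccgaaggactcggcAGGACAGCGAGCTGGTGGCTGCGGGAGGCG
Nid1, chr13:13437572-13437631, plus strand: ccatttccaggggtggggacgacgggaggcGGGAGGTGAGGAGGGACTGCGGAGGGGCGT
Lamb2, chr9:108479832-108479891, plus strand: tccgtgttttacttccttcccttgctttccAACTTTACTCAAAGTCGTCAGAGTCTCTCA
Agrn, chr4:156197459-156197518, minus strand: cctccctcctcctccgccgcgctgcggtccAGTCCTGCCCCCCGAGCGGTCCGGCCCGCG
Col18a1, chr10:77166501-77166560, minus strand: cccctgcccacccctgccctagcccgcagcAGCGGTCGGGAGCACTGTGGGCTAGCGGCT
Hspg2, Nid1 and Lamb2 were covered in both lists, from base 1 in Hspg2 and Nid1 and from base 13 in Lamb2, whereas Agrn and Col18a1 were covered there in the control list alone. The letters GGAC, searched on the transcribed strand, begin at base 2 in Hspg2 and at base 14 in Nid1, and are not in the first 50 bases of the other 3. Over all 32851 RefSeq start windows, 18.9% hold GGAC in the first 50 transcribed bases. The first transcribed base is A in 4 of the 5 and G in Nid1, against A in 34.4% of all windows. A match describes the letters only, and the peaks are far wider than these windows.

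The classes differed in how many of their genes carried m6A peaks, while over the series 10675 of 21896 protein-coding genes did. All 6 glycoproteins and proteoglycans had peaks in both lists. These 6 were picked singly by name, whereas the laminins and collagens were taken as whole families by symbol. Their count is therefore not comparable with those of the other classes. Of the 11 laminin chains, 6 had peaks, again all in both lists, among them Lama1, Lama5, Lamb1, Lamb2 and Lamc1. Of the 42 collagens, 17 had a peak, and 10 of those had one in both lists. No peak was listed for Lama2 and Lama4, nor for any of the 6 type VI collagen genes, nor for Col1a2 and Col3a1, chains of the main connective tissue fibres. A peak requires both a mark and enough reads, so a gene without one may be unmarked or too little expressed, and the lists cannot tell these apart.

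Only 1 of the 29 genes, Col20a1, had peaks in the Dox list alone (3.45%, interval 0.0873 to 17.8), against 11.1% of all 13110 gene identifiers with a peak. By contrast 6 of the 29 had peaks in the control list alone (20.7%, interval 7.99 to 39.7), against 8.92% of all identifiers, and all 6 were collagens. The other 22 (75.9%) had peaks in both lists, against 79.9% of all identifiers. The interval for the control-only share includes the value over all genes, so these counts do not separate the matrix genes from the rest.

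The strength of the calls also differed by class. Peaks with a log10 FDR no higher than -20 were listed for 13 genes: all 6 glycoproteins and proteoglycans, all 6 laminin chains with peaks, and 1 collagen, Col18a1. Such calls made up 39 of the 99 matrix peaks in Dox, against 7665 of all 27612 Dox peaks. In control they made up 39 of 113, against 8944 of all 25815. The share of all genes with such a call is not given here. Laminin peaks passed a log10 FDR of -5 in 18 of 26 Dox peaks and 19 of 24 control peaks. Glycoprotein and proteoglycan peaks passed it in 30 of 34 Dox peaks and 30 of 31 control peaks. Collagen peaks passed it in 10 of 39 Dox peaks (25.6%) and 23 of 58 control peaks (39.7%). All matrix peaks together passed it in 58 of 99 in Dox (58.6%, interval 48.2 to 68.4), against 56.9% of all Dox peaks, and in 72 of 113 in control (63.7%, interval 54.1 to 72.6), against 64.3% of all control peaks.

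**Figure D1:**
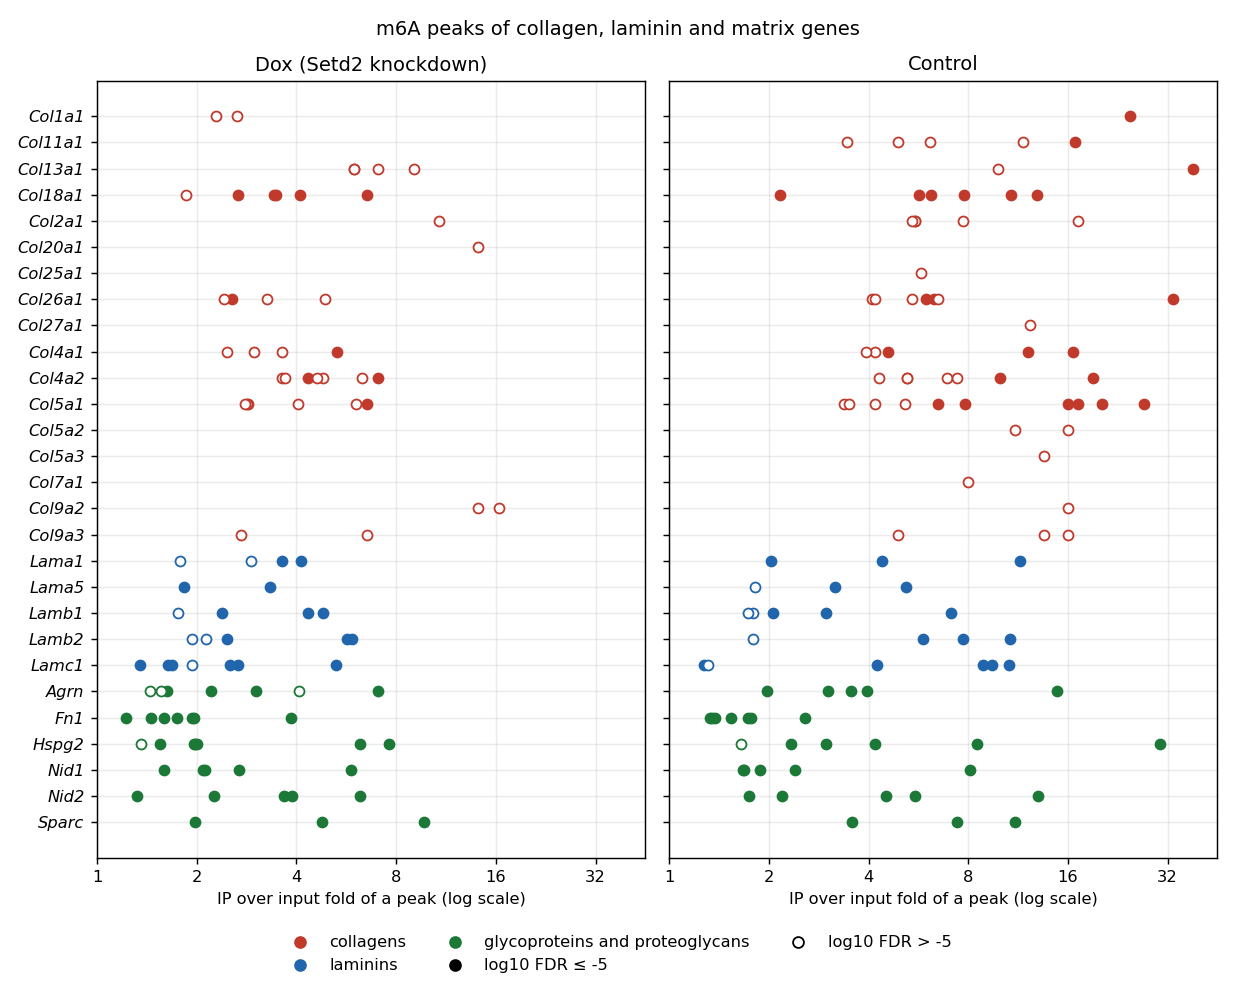
Fold (IP over input, log scale) of the peaks of 28 of the 29 matrix genes with a peak, Dox on the left and control on the right; each point is 1 peak, filled where its log10 FDR is -5 or lower and open elsewhere. Collagens (red) have mostly open points and reach 38.1 in the control panel, against 16.3 in the Dox panel, while laminins (blue) and the 6 glycoproteins and proteoglycans (green) have points in both panels for every gene shown.

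Across all matrix peaks the folds were lower in the Dox list. The median fold was 2.98 over the 99 Dox peaks, with quartiles of 1.96 and 5.29, and 5.54 over the 113 control peaks, with quartiles of 3.16 and 10.7. Over all peaks of the series the medians were 3.51 in Dox and 4.62 in control. A fold of at least 8 was listed for 6 matrix peaks in Dox (6.06%, interval 2.26 to 12.7, against 9.4% of all Dox peaks) and for 39 in control (34.5%, interval 25.8 to 44, against 26.8% of all control peaks). Both intervals include the value over all peaks of the list, so these shares do not separate matrix peaks from the rest. The control median was 7.13 for collagens, 4.79 for laminins and 2.57 for glycoproteins and proteoglycans, against 4.62 over all control peaks. In Dox the medians of these classes were 4.11, 2.49 and 2.04, against 3.51 over all Dox peaks. Collagens thus lay above the median of either list, and glycoproteins and proteoglycans below it.

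Peaks without a partner in the other list were counted next, a partner being any peak that shares at least 1 exonic base on the same strand. Of the 99 Dox peaks, 22 had no control partner (22.2%, interval 14.5 to 31.7), against 29.1% of all Dox peaks. Of the 113 control peaks, 35 had no Dox partner (31%, interval 22.6 to 40.4), against 19.3% of all control peaks. The value over all control peaks lay below this interval, and most of the unpartnered peaks were weak calls. Above a log10 FDR of -5, 26 of 41 control peaks lacked a partner (63.4%, interval 46.9 to 77.9), against 40.4% of all such control peaks. At -5 or below, 9 of 72 did (12.5%, interval 5.88 to 22.4), against 7.56%. Among Dox peaks the shares were 16 of 41 above -5 (39%, against 52.1% of all such Dox peaks) and 6 of 58 at -5 or less (10.3%, against 11.6%).

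The unpartnered control peaks were mainly those of collagens. No Dox partner was found for 29 of the 58 collagen peaks in control (50%, interval 36.6 to 63.4), against 2 of 24 laminin peaks (8.33%, interval 1.03 to 27) and 4 of 31 glycoprotein and proteoglycan peaks (12.9%, interval 3.63 to 29.8). In the Dox list the 3 classes were alike, with no control partner for 9 of 39 collagen peaks (23.1%), 5 of 26 laminin peaks (19.2%) and 8 of 34 glycoprotein and proteoglycan peaks (23.5%). All 10 collagen peaks that passed a log10 FDR of -5 in Dox had a control partner. Of the 23 such collagen peaks in control, 4 had none, and of the 35 weaker ones 25 had none (71.4%, interval 53.7 to 85.4).

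Those 4 stronger collagen peaks lay in 4 genes. In Col26a1 a single-exon control peak of 150 nt at chr5:136838136-136838285 had a fold of 33.2 (log10 FDR -7.33). The control peak of Col5a1, which encodes the chain that starts and limits fibrils in many tissues, had a fold of 27.1 (-5.72) within 500 nt of the gene's 5′ end. In Col11a1, a cartilage fibril chain, a control peak over 6 exonic blocks had a fold of 16.8 (-9.99). The peak of Col18a1 in control, at the start site printed above, had a fold of 7.79 (-5.53).

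Overlapping peaks were then paired, each being the other's best overlap by shared exonic bases, which gave 73 matrix pairs and 18837 pairs over the series. The median matrix pair had a Dox fold 0.661 times its control fold, -0.60 on the log2 scale with quartiles of -1.20 and -0.18. Over all pairs the median ratio was 0.813, -0.30 on the log2 scale. The Dox fold was at most 0.5 times the control fold in 24 of 73 matrix pairs (32.9%, interval 22.3 to 44.9), against 20.6% of all pairs, and it was above the control fold in 18 (24.7%, interval 15.3 to 36.1), against 33.8%. Where both peaks passed a log10 FDR of -5, the median was -0.61 over 50 matrix pairs and -0.36 over all such pairs. There the Dox fold was at most 0.5 times in 15 of 50 (30%, interval 17.9 to 44.6), against 20.8%, and above in 11 (22%), against 29.1%. In that stricter set the interval includes the value over all pairs.

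By class, the Dox fold was a median of 0.509 times the control fold over 28 collagen pairs, 0.640 times over 19 laminin pairs and 0.744 times over 26 glycoprotein and proteoglycan pairs. It was at most 0.5 times that in 13 collagen, 5 laminin and 6 glycoprotein and proteoglycan pairs, and above the control fold in 5, 5 and 8 pairs of these classes. Pairs of 1 gene share its transcript, so these are not independent measurements. The scaling of IP against input by the authors in each condition is not given in the labels or headers.

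**Figure D2:**
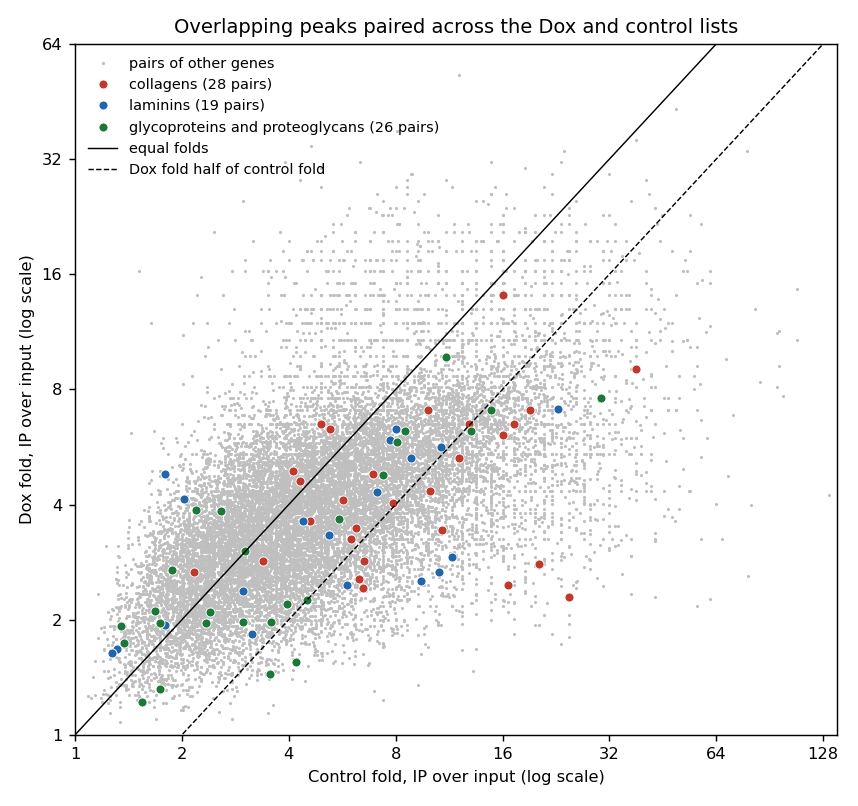
Dox fold (vertical, log scale) against control fold (horizontal, log scale) for the 73 paired peaks of matrix genes, with pairs of other genes in grey; the solid line marks equal folds and the dashed line a Dox fold of 0.5 times the control fold. Of the 73 matrix pairs 18 lie above the solid line and 24 on or below the dashed one, 13 of these collagens.

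Among the glycoproteins, Fn1 went the other way from most. Fibronectin joins cells, through integrins, to collagen and other matrix. Its gene, on the minus strand of chromosome 1, had 7 peaks in each list. From 5′ to 3′ the Dox folds were 3.85, 1.96, 1.22, 1.45, 1.59, 1.93 and 1.74, and the control folds 1.33, 2.57, 1.73, 1.54, 1.76, 1.35 and 1.37. The strongest call of each list was in the same place: the Dox peak at chr1:71645500-71649272 (fold 3.85, log10 FDR -Inf) paired with the control peak of fold 2.57 (-68.6). The Dox fold was above the control fold in 4 of the 5 pairs, by 0.18 to 0.58 on the log2 scale, and below it in 1, at -0.34. All Fn1 folds are low for their FDRs, and 2 Dox peaks and 2 control peaks had no partner.

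Sparc encodes a collagen-binding glycoprotein of basement membranes, and its peaks differed least in place. It had 3 peaks in each list, of which the first 2 had identical bounds in both, at chr11:55409903-55419991 and chr11:55399537-55409337. The folds from 5′ to 3′ were 9.71, 4.78 and 1.97 in Dox and 11.1, 7.39 and 3.57 in control. Every Sparc pair was lower in Dox, by log2 values of -0.19, -0.63 and -0.86. The second peak had a log10 FDR of -Inf in both lists and ran over 6 exonic blocks.

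Nidogens bridge the laminin and collagen networks, and both genes had 5 peaks per list with a mixed pattern along the transcript. Nid2 folds from 5′ to 3′ were 3.67, 6.22, 2.25, 1.32 and 3.88 in Dox and 5.54, 13.0, 4.51, 1.74 and 2.19 in control. The 4 upstream pairs were lower in Dox, the second of them by -1.06 on the log2 scale (-Inf in both lists, within 1 exon at chr14:19768258-19768917 in Dox), and the pair nearest the 3′ end was higher, by 0.83. Nid1 folds were 5.84, 2.11, 2.09, 1.59 and 2.69 in Dox and 8.09, 1.68, 2.40, 1.67 and 1.88 in control. Its first pair, at the start site shown above, was lower in Dox by -0.47, and its last pair, near the 3′ end, higher by 0.52. The fourth Nid1 peak of either list had no partner.

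Hspg2 and Agrn encode heparan sulfate proteoglycans of basement membranes, agrin also being the organiser of the nerve-muscle synapse. Hspg2 had Dox folds of 7.59, 1.55, 1.96, 2.00, 1.97, 1.36 and 6.21, and control folds of 30.3, 4.19, 2.34, 2.98, 1.65 and 8.52. All 5 Hspg2 pairs were lower in Dox. The first, which begins at the start site and runs over 7 exonic blocks in Dox and 6 in control, differed most, with a fold of 7.59 (log10 FDR -37.1) in Dox and 30.3 (-73.9) in control, -2.0 on the log2 scale. The last, at the 3′ end, had 6.21 (-138) in Dox and 8.52 (-224) in control. Agrn had 7 Dox peaks with folds of 7.05, 4.07, 3.02, 1.44, 2.20, 1.63 and 1.56, and 5 control peaks with folds of 14.8, 3.01, 3.55, 3.95 and 1.97. Its second pair, in the middle of the gene, was equal within 0.01 (3.02 and 3.01), the other 3 were lower in Dox by -1.07, -1.30 and -0.84, and 3 Dox peaks had no partner.

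Among the laminins, Lama1, Lamb1 and Lamc1 encode the chains of the main laminin of the early embryo. Lamc1, the gamma chain shared by most laminins, had Dox folds of 1.93, 2.52, 1.64, 1.35, 2.67, 5.28 and 1.68 from 5′ to 3′, and control folds of 9.42, 1.27, 10.6, 4.25, 8.84 and 1.31. The peak near its 5′ end had 2.52 in Dox and 9.42 in control, -1.90 on the log2 scale, and the one over 5 exonic blocks had 2.67 in Dox and 10.6 in control, -1.99. The strongest call of both lists, at -Inf, had 5.28 in Dox and 8.84 in control, -0.74. The 2 remaining pairs, both weak in fold, were higher in Dox by 0.37 and 0.36.

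Lama1, the alpha chain, had Dox folds of 2.92, 1.78, 4.13 and 3.62, and control folds of 11.5, 2.03 and 4.38. Its 5′ peak was lower in Dox by -1.98 on the log2 scale, and only a weak call there (log10 FDR -2.73, against -31.3 in control), while the pair of 4.13 and 2.03 was higher in Dox by 1.02 (-25.0 in Dox and -5.27 in control). Lamb1, the beta chain, had Dox folds of 4.81, 1.76, 2.38 and 4.32, and control folds of 2.06, 1.79, 2.98, 7.09 and 1.73. The Dox peak of 4.81 (-42.2) at chr12:31318301-31320035 paired with the control peak of 1.79 (-4.41), a log2 difference of 1.43 that was the highest of all 73 matrix pairs. The other 2 Lamb1 pairs were lower in Dox, by -0.32 and -0.71. Within these 3 chains, then, the same transcript held pairs that differed in opposite directions.

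Lama5, an alpha chain of many basement membranes, had folds of 1.83 and 3.33 in Dox and 1.81, 3.16 and 5.20 in control, and both of its pairs were lower in Dox (-0.79 and -0.64). Lamb2, a beta chain best known in kidney and synapse, had folds of 5.89, 1.94, 2.46, 5.67 and 2.13 in Dox and 7.69, 1.79, 5.82 and 10.7 in control, and 3 of its 4 pairs were lower in Dox, by -0.38, -1.24 and -0.92. Of the 5 laminin peaks in Dox without a partner, 4 were above a log10 FDR of -5 and all had folds of 1.35 to 2.13.

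**Figure D3:**
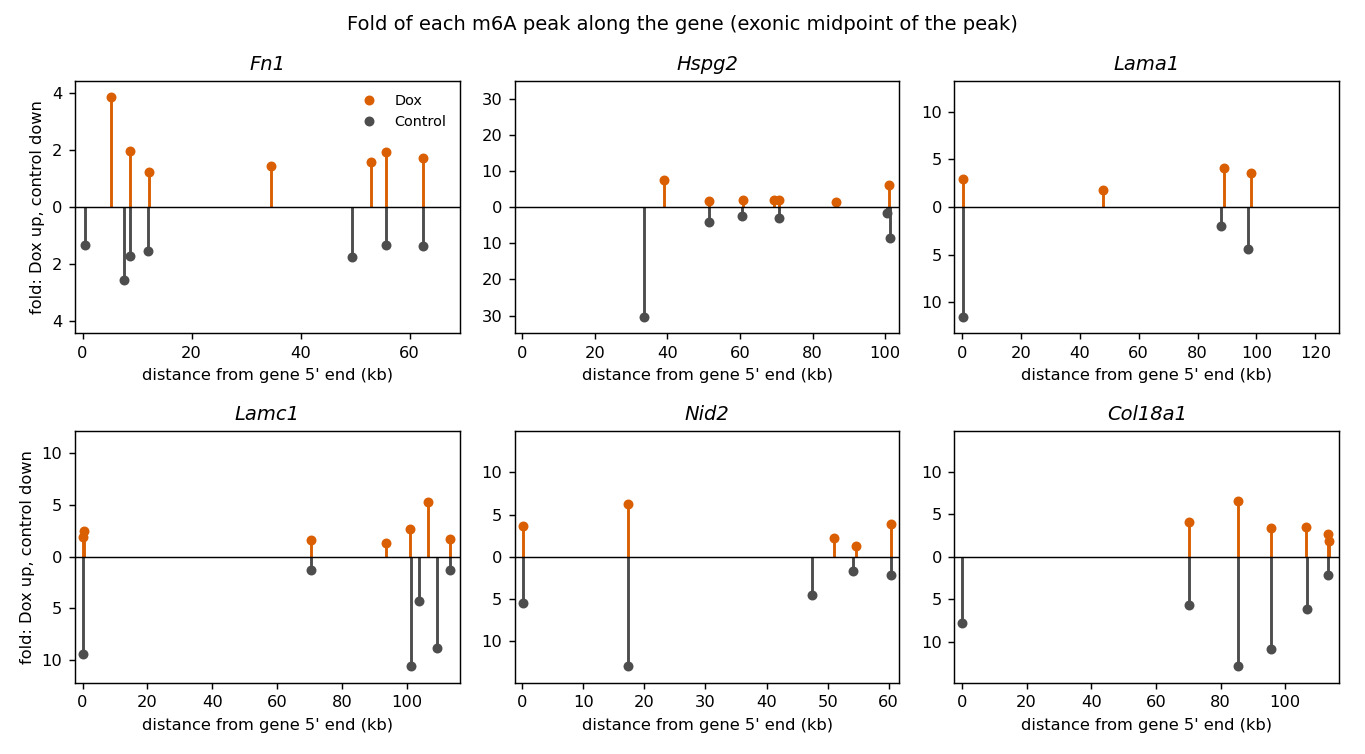
Fold of each m6A peak of Fn1, Hspg2, Lama1, Lamc1, Nid2 and Col18a1 against the distance of the peak's exonic midpoint from the gene's 5′ end (kb); Dox folds point up and control folds point down. Downward bars are the longer ones at most shared positions, as at the 5′ ends of Lama1 (2.92 in Dox, 11.5 in control) and Lamc1 (2.52 in Dox, 9.42 in control), while the strongest Fn1 peak is longer in Dox (3.85 and 2.57). The first Hspg2 peak spans introns, so its midpoint lies far from the start site at which it begins.

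Among the collagens, Col18a1 was the only gene with calls at a log10 FDR of -20 or below. Its product is a basement membrane collagen from whose end the fragment endostatin is cut. It had 6 peaks per list on chromosome 10: the Dox folds were 4.11, 6.51, 3.43, 3.48, 2.66 and 1.86, and the control folds 7.79, 5.68, 12.9, 10.8, 6.19 and 2.16. The first 2 pairs had identical bounds in both lists, at chr10:77089404-77112335 (4.11 in Dox, 5.68 in control) and chr10:77078033-77089344 (6.51 in Dox, 12.9 in control). The next pair ran over 15 exonic blocks in Dox and 17 in control, the most of any matrix peak, with folds of 3.43 (log10 FDR -117) in Dox and 10.8 (-Inf) in control, -1.65 on the log2 scale. The last pair, just over 1000 nt from the 3′ end, was higher in Dox by 0.30. The control peak at the start site and a weak Dox peak of 1.86 near the 3′ end had no partner.

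Col4a1 and Col4a2 encode the most widespread network chains of basement membranes, and the genes lie head to head on chromosome 8. Col4a1 folds were 2.47, 3.62, 5.30 and 2.98 in Dox and 4.18, 16.6, 4.59, 12.1 and 3.94 in control, and its 3 pairs were all lower in Dox, by -2.75, -0.34 and -1.19. Col4a2 folds were 3.62, 4.80, 7.05, 4.34, 3.69, 6.29 and 4.61 in Dox and between 4.31 and 19.1 for the 7 control peaks. Its 3 pairs farthest 5′ were lower in Dox, by -0.52, -1.44 and -1.20, and the 2 pairs farthest 3′ were higher by 0.27 and 0.10. The log10 FDRs of both genes stayed between -14.4 and -1.77, far weaker than those of laminins and nidogens.

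Fibrillar collagens showed a wide gap between the lists, mostly among weak calls. Of 11 genes, 3 had peaks in both lists (Col1a1, Col2a1 and Col5a1), 4 in control alone (Col5a2, Col5a3, Col11a1 and Col27a1), and none in Dox alone. They carried 9 Dox peaks with a median fold of 2.85 and 25 control peaks with a median fold of 7.84. Of the 25 control peaks 17 had no Dox partner (68%, interval 46.5 to 85.1). In the 7 pairs the Dox fold was always the lower, at most 0.5 times in 5, with a median of -1.40 on the log2 scale.

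Col5a1 supplied 6 of those pairs. Its Dox folds were 2.85, 2.84, 2.80, 4.03, 6.07 and 6.51, and its 10 control folds were 27.1, 3.38, 3.49, 6.50, 20.3, 7.84, 4.18, 16, 5.17 and 17.2. The pair of 2.80 in Dox and 20.3 in control differed by -2.86 on the log2 scale, but the Dox peak was a weak call of 61 nt (log10 FDR -2.29). Col1a1, the chain most abundant in bone and skin, gave the lowest value of all 73 pairs, with 2.29 (-2.06) in Dox and 24.6 (-5.08) in control at chr11:94950569-94950884, -3.43 on the log2 scale, again beside a Dox call of 61 nt. Col2a1, the main cartilage collagen, had 1 Dox peak with a fold of 10.8 (-3.80) and 5 control peaks with folds of 17.2, 7.69, 5.54, 5.54 and 5.41, and none of these overlapped.

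The control-only genes rested on few and weak calls. Col11a1 had 5 control peaks, with folds of 11.7, 3.44, 4.92, 6.15 and 16.8, and only the last passed a log10 FDR of -5. Col5a2 had 2 peaks (11.1 and 16), and Col5a3 (13.5), Col27a1 (12.3), the transmembrane collagen Col25a1 (5.74) and Col7a1, which forms the anchoring fibrils of skin (8.0), had 1 each. Of these 11 control peaks, 10 were above -5. The Dox-only gene Col20a1 had a single peak over 5 exonic blocks, with a fold of 14.1 (-2.76). A second identifier within the Col20a1 interval carried a near-identical pair of short Dox peaks and was not counted.

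Among the remaining collagens, the transmembrane collagen Col13a1 had folds of 5.97, 5.97, 9.04 and 7.05 in Dox and 38.1 and 9.84 in control. Its main pair had 9.04 (-4.92) in Dox and 38.1 (-8.64) in control, the control value being the highest fold of any matrix peak. Col26a1 had 4 Dox peaks between 2.42 and 4.88 and 7 control peaks between 4.10 and 33.2, and 3 of its 4 pairs were lower in Dox. The cartilage collagens of the class that decorates fibrils had few peaks: Col9a2 with 16.3 and 14.1 in Dox and 16 in control, and Col9a3 with 6.51 and 2.71 in Dox and 16, 13.5 and 4.92 in control. None of these passed a log10 FDR of -5.

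Weak peaks of high fold repeat a few values. Among all peaks with a fold of at least 8 and a log10 FDR above -5, the fold was a whole multiple of 1.0845 in 80.4% of 1891 Dox peaks and of 1.2300 in 77.3% of 2628 control peaks, within 0.005 below a fold of 10 and 0.05 from 10 up. The matrix genes had 5 such Dox peaks, 4 of them on the steps, and 19 such control peaks, 14 of them on the steps. Thus 14.1 appears in both Col20a1 and Col9a2 in Dox, and 16 in Col5a2, Col9a2 and Col9a3 in control. The read counts behind the folds were not analysed here.

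Matrix peaks often crossed exon junctions. Of the Dox peaks, 70 of 99 consisted of 2 or more exonic blocks (70.7%, interval 60.7 to 79.4), against 42.7% of all Dox peaks, and of the control peaks 88 of 113 (77.9%, interval 69.1 to 85.1), against 41.2%. Peaks of 5 or more blocks made up 21 of 99 in Dox (21.2%, interval 13.6 to 30.6, against 4.5% of all) and 22 of 113 in control (19.5%, interval 12.6 to 28, against 3.07% of all). Their median exonic length was 240 nt in both lists, against 240 nt over all Dox peaks and 211 nt over all control peaks. Lengths lay within 1 nt of a multiple of 30 nt for 93.9% of matrix peaks in Dox, against 83.1% of all Dox peaks, and for 93.8% in control, against 84.9% of all control peaks.

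The exons inside these peaks carried the repeat structure of collagen. A block that is neither the first nor the last of its peak is bounded by introns on both sides, and such whole exons were measured, each once over both lists. In 5 fibrillar collagen genes there were 57, and all 57 were multiples of 9 nt long, the length that encodes 1 glycine-led triplet (100%, interval 93.7 to 100). Of these, 38 were 54 nt, 9 were 45 nt, 9 were 108 nt and 1 was 99 nt. In the class that includes Col9a2, Col9a3 and Col20a1, 16 of 18 were multiples of 9 nt and 13 were 54 nt. Network collagens had 12 of 29 (41.4%) and Col13a1 and Col18a1 together 20 of 36 (55.6%).

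Of the laminin exons, with a median length of 142 nt, 4 of 33 were multiples of 9 nt (12.1%). Of the glycoprotein and proteoglycan exons, with a median of 128 nt, 1 of 26 was. Over all genes 1748 of 12366 such exons were multiples of 9 nt (14.1%) and 118 were exactly 54 nt (0.954%), 54 of those in the collagens described here. The exons were read from the peaks' own blocks, without an exon annotation.

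**Figure D4:**
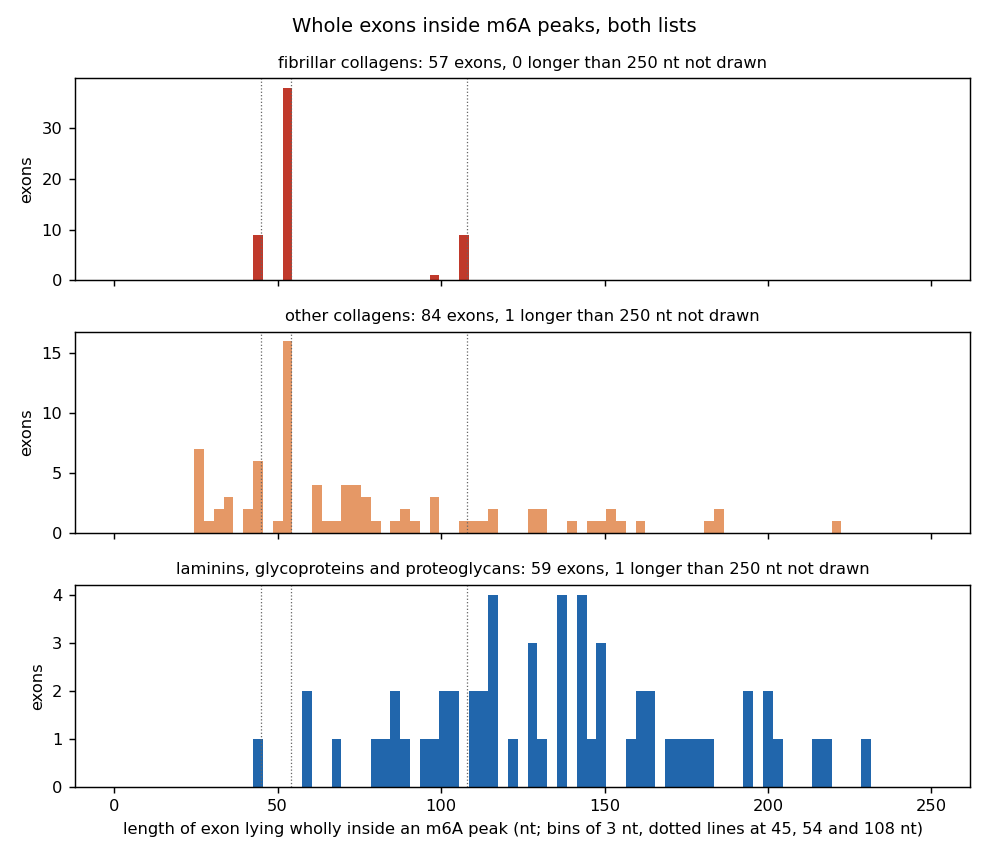
Number of exons (vertical) by length in nt (horizontal, bins of 3 nt) for exons lying wholly inside an m6A peak of either list: fibrillar collagens above, other collagens in the middle, and laminins, glycoproteins and proteoglycans below. The 57 fibrillar exons fall on 4 lengths, 45, 54, 99 and 108 nt, whereas laminin, glycoprotein and proteoglycan exons spread widely with no peak at 54 nt.

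Peaks lay mostly inside the genes rather than at their ends. Within 500 nt of the annotated 5′ end were 8 of 99 Dox peaks (8.08%, interval 3.55 to 15.3), against 7.75% of all Dox peaks placed, and 11 of 113 control peaks (9.73%, interval 4.96 to 16.8), against 13.1%. Within 1000 nt of the 3′ end were 10 Dox peaks (10.1%, interval 4.95 to 17.8), against 15.3%, and 6 control peaks (5.31%, interval 1.97 to 11.2), against 13.7%. The control share at 3′ ends was thus below that of all control peaks, while the others were not distinguishable from their lists at these numbers.

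The ends differed in direction. In the 7 pairs whose control peak lay within 500 nt of the 5′ end (Agrn, Lama1, Lamb2, Lamc1, Nid1, Nid2 and Sparc), the Dox fold was the lower in all, by log2 values of -1.98 to -0.19 with a median of -0.59. Over the 1713 such pairs of the series the median was -0.82 and 21.7% were higher in Dox. In the 5 pairs within 1000 nt of the 3′ end, 4 were higher in Dox (Col9a3, Lamc1, Nid1 and Nid2) and that of Hspg2 was lower, with a median of 0.40, against a median of -0.13 and 41.1% higher in Dox over 2447 pairs. With 7 and 5 pairs these are descriptions of named genes. The control list further held 4 peaks at 5′ ends with no Dox partner, among them those of Col18a1, Col5a1 and Fn1. The same share over all control peaks at 5′ ends is not given here, so this count shows no difference from other genes.

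Other genes of matrix biology, taken from lists and not from their values, are given beside them. Over the series 10675 of 21896 protein-coding genes had a peak. No partner was found for 29.1% of all Dox peaks and 19.3% of all control peaks. Of 26 receptors 18 had peaks, 16 in both lists, 1 (Itga8) in Dox alone and 1 (Itgb6) in control alone. Of their peaks, 9 of 38 in Dox (23.7%) and 12 of 47 in control (25.5%) had no partner. The receptors with the lowest FDRs were Bcam, a laminin receptor, with highest folds of 2.96 in Dox and 6.50 in control, Dag1, the laminin-binding dystroglycan, with 5.59 in Dox and 7.13 in control, and the syndecan Sdc4, with 4.80 in Dox and 7.48 in control.

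Of 26 enzymes that modify, fold or process collagen 15 had peaks, 11 in both lists, 3 in Dox alone and 1 in control alone. Of their peaks, 11 of 32 in Dox (34.4%) and 4 of 26 in control (15.4%) had no partner. P4hb, a subunit of prolyl 4-hydroxylase, had highest folds of 4.09 in Dox and 7.53 in control, the prolyl 3-hydroxylase P3h1 4.62 in Dox and 8.82 in control, and the galactosyltransferase Colgalt1 4.71 in Dox and 4.21 in control. Of 14 matrix proteases and their inhibitors 7 had peaks, 5 in both lists and 2 in Dox alone. Those 2 were Mmp11 (2.13, log10 FDR -10.3) and the inhibitor Timp1 (1.59, -9.33). Of the shared ones, Mmp14, a membrane-bound collagenase, had 7.35 in Dox and 12.2 in control, Mmp24 6.37 in Dox and 9.0 in control, and the sheddase Adam17 5.15 in Dox and 6.75 in control.

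Marker genes of stem cells, extraembryonic endoderm and fibroblasts were looked up, although having or lacking a peak does not measure expression. All 9 embryonic stem cell markers examined, among them Pou5f1, Sox2 and Nanog, had peaks in both lists. Of 8 markers of extraembryonic endoderm, a lineage that makes much laminin and network collagen, only Gata4 had a peak, in control alone (17.2, log10 FDR -3.21), and of 9 fibroblast markers Vim had peaks in both lists and Pdgfrb 1 in control alone (17.2, -3.21). The markers Gata6, Sox17, Dab2, Thy1, Twist1, Dcn and Lum had none in either list. The part of other cell types in the collagen peaks was not tested, since a peak list does not measure transcript levels. Setd2 itself had 6 peaks in Dox, with a highest fold of 6.51 (-6.96), and 10 in control, with a highest fold of 10.2 (-54.7), which likewise does not measure the knockdown.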

How the data were processed

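m6A-seq was done on 8 libraries, 2 of each of 4 groups (Dox IP, Dox input, control IP, control input). Of tools and builds, the submitters' processing notes list mm10, TopHat2 2.1.1 and FastQC 0.11.5. The deposited tables are named for exomePeak, whose settings the labels and headers do not state. The file headers call each deposited fold an enrichment, which was read here as a ratio of IP over input. The deposited tables also hold a p-value per peak, and the deposited log10 p and log10 FDR were read as a score. The shorter deposited lists were checked to be the table's peaks past p 1e-05 and fold 2. Depth is unknown.

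Identifiers received symbols by location and, where RefSeq gives it, strand: at least 50% of an identifier's peak midpoints in 1 protein-coding gene, with no tie. This named 10675 of 13110. Where several fell in a gene, the one with the greatest exonic peak length was kept. Overlapping genes can be misnamed. Col4a5 and Col4a6 are X-linked and left out by the rule. Start sites came from RefSeq windows, which matched 42 of the 59 genes. Overlaps used bedtools 2.31.1 (exonic blocks, same strand), and intervals scipy 1.17.1. Overlaps and peak midpoints were checked on simulated data of 300 peaks per list, with 0 errors. Peaks were placed in genes of at least 3000 nt.

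No test was run, since each condition is 1 pooled list. The genes, lists and thresholds were chosen with earlier results of these data known. Genes described singly are those with any log10 FDR of -20 or below, those with peaks in 1 list alone, and the main basement membrane genes. Outside that rule, Col1a1, Col2a1, Col5a1, Col9a2, Col9a3, Col13a1 and Col26a1 were described after their values were seen. Alternatives changed the lists, the overlap, the windows and the fold threshold. Keeping the identifier with most peaks was added after seeing the data. Values of 1 laminin gene are counted in the totals and not reported here singly.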

Additional observations from a re-analysis of the deposited data

How the results depend on the processing

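Of the 71 recomputed summary values, 52 stayed close to those reported, 19 moved and none reversed. The number of matrix genes with peaks in both lists was 22 as reported and 17 to 22 otherwise. With both lists limited to the authors' stricter lists, 45 Dox and 64 control peaks remained, 11.1% of the Dox peaks had no partner (22.3% of all), 45.3% of the control peaks had a fold of at least 8, and 86.7% of the Dox peaks had 2 or more blocks. With both lists at a log10 FDR of -5 or less, 58 Dox and 72 control peaks remained, 12.1% of the Dox peaks had no partner (22.3% of all), 1.72% had a fold of at least 8 and 84.5% had 2 or more blocks. For folds and blocks, the shares of all peaks under these filters are not given here. No difference from other genes is therefore shown by them. Over all control peaks the share without a partner was 24% in the stricter lists and 21% at this FDR. The matrix control share in both settings is not given here, so the excess seen in the full lists is not shown for them. With a fold of 4 or more required in each list, 37 Dox peaks remained and 59.7% of the control peaks had no partner (45.7% of all). With only a list's own peaks so limited by FDR, 10.3% in Dox (11.6% of all) and 12.5% in control (7.56% of all) had no partner. Lowering the fold threshold from 8 to 4 gave 37.4% in Dox and 68.1% in control. Over all peaks, 11394 of 27612 in Dox and 14928 of 25815 in control had a fold of at least 4. Within 2000 nt of the 3′ end lay 18.2% of Dox and 13.3% of control peaks, and within 500 nt 4.04% of Dox and 2.65% of control peaks. The shares of all peaks in these windows are not given here. The lower control share at 3′ ends described above is therefore not shown for them. Under overlaps of at least 50% of the shorter peak, 25.3% of Dox peaks (30.5% of all) and 34.5% of control peaks (20.9% of all) had no partner. No paired analysis was possible because both replicates of a condition are pooled in 1 list.

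Depth per library is unknown, and a peak missing from a list cannot be told apart from thin coverage there. The lists differ in size and in their folds over all genes, and peaks of 1 gene share its transcript. For single genes, 389 recomputed values were labelled the same and 92 moved. This tally pools settings that differ. With the authors' stricter lists, 33 of 51 peak counts of single genes moved and 11 had no peak left. The FDR limit moved 29 and left 14 with none, and the fold limit of 4 moved 24 and left 4 with none. The other settings, on which peaks or identifier a gene received, moved 1 each. Most single-gene peak counts were thus not stable under the stricter lists or the FDR limit.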
